A study of Homo sapiens with 2 samples.

Results

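GAST, which encodes the precursor of the stomach hormone gastrin, and OVGP1, which encodes oviductal glycoprotein 1, were 2 of the 60616 genes listed for HSC-3 cells with and without FIN56. Both were chosen by the measured contrast itself, because their counts were many times higher in the FIN56 library than in the DMSO library and their usual tissues are far from the oral mucosa. The ratios below are therefore descriptions of how the genes were selected, and no test was made of them. HSC-3 is an established human squamous carcinoma line of the oral cavity, and FIN56 is a compound used to trigger ferroptosis, cell death driven by lipid peroxidation. One library came from cells given 0.1% DMSO, the solvent, for a time the labels do not state, and the other from cells given 1 µM FIN56 for 48 h, so there was 1 library per condition and no replicate check. The libraries held 70184517 (DMSO) and 73062209 (FIN56) expected counts, the read numbers that RSEM assigns to each gene. The intervals given here are 95% intervals that cover counting error only and compare these 2 libraries, not the conditions.

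Gastrin is made by G cells of the gastric antrum as a longer precursor, which is cut by prohormone convertases, trimmed by carboxypeptidases and amidated at its end before secretion. The mature peptide acts on the cholecystokinin B receptor, through which it drives acid secretion and growth of the gastric mucosa. OVGP1 belongs to the chitinase-like proteins of glycosyl hydrolase family 18, is secreted by the non-ciliated cells of the oviduct under estrogen, and binds the zona pellucida around the egg.

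GAST (ENSG00000184502) lies on the forward strand of GRCh38 at chr17:41712331-41715969 and has 1 annotated transcript of 3 exons and 465 bases in GENCODE 44. Its coding part starts in exon 2, so exon 1 is entirely 5′ untranslated. GAST had 18 expected counts under DMSO (exact Poisson interval 10.7 to 28.4) and 369 under FIN56 (332 to 409). As a share of the library total, in CPM, this was 0.256 (Clopper-Pearson interval 0.152 to 0.405) and 5.05 (4.55 to 5.59). The counting intervals of the libraries did not overlap, and the FIN56 library was the high one. Both follow from the choice of GAST by its counts, and nothing is read from them. The level per length was 0.70 FPKM and 1.05 TPM in the DMSO library, against 13.78 FPKM and 21.07 TPM in the FIN56 library, where FPKM and TPM are abundances scaled for transcript length and library size. By TPM, GAST lay above 49.1% of the 27340 genes with a TPM above 0 in the DMSO library and above 77.8% of the 27506 such genes in the FIN56 library. It thus moved from the middle of the detected genes to the upper part.

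OVGP1 (ENSG00000085465) lies on the reverse strand at chr1:111414319-111427735. Its full coding transcript has 11 exons and 2196 bases, and the annotation adds a pair of short transcripts without a defined coding part, of 640 and 482 bases. OVGP1 had 36 expected counts under DMSO (25.2 to 49.8) and 341 under FIN56 (306 to 379). In CPM this was 0.513 (0.359 to 0.710) and 4.67 (4.18 to 5.19). Here too the intervals did not overlap and the FIN56 library was the high one, which again follows from the choice of the gene. The level per length was 0.27 FPKM and 0.41 TPM in the DMSO library, against 2.96 FPKM and 4.52 TPM in the FIN56 library. OVGP1 lay above 39.96% of the genes with a TPM above 0 in the DMSO library and above 61.2% in the FIN56 library.

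The order of the levels was the same in both libraries on the TPM scale. GAST was above OVGP1 in the DMSO library, with intervals of 0.622 to 1.66 TPM for GAST and 0.287 to 0.568 TPM for OVGP1. In the FIN56 library the TPM intervals were 19.0 to 23.3 for GAST and 4.05 to 5.03 for OVGP1. Both pairs of intervals were apart. In counts, which are not scaled for length, OVGP1 was the higher gene in the DMSO library. The count intervals there overlapped, at 10.7 to 28.4 for GAST and 25.2 to 49.8 for OVGP1. No other annotated gene overlaps GAST or OVGP1, and the expected counts of both were whole numbers in both libraries. Of the 14247 genes with FPKM above 0 in both libraries and at least 100 expected counts together, 7535 (52.9%) had whole counts in both, that is with no digit other than 0 after the decimal point as deposited.

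**Figure D1:**
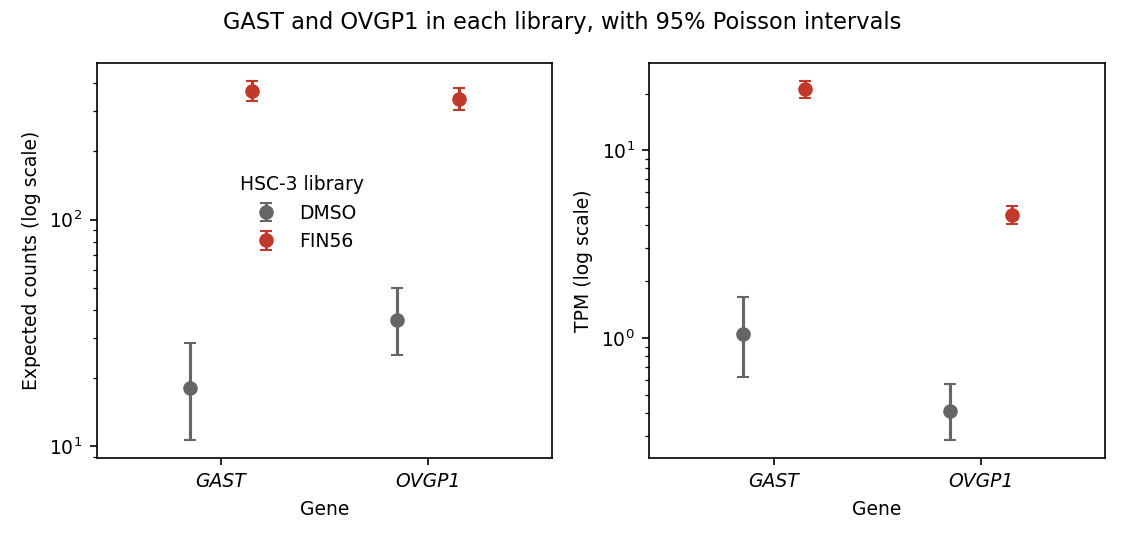
Expected counts (left) and TPM (right) of GAST and OVGP1 in the DMSO and FIN56 libraries of HSC-3, on log axes. Points are single libraries and bars are exact 95% Poisson intervals, scaled to TPM on the right; GAST went from 18 to 369 counts and OVGP1 from 36 to 341.

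The 4 deposited measures were next set side by side. For GAST the FIN56 over DMSO ratio was 19.7 in FPKM, 20.1 in TPM and 19.7 in expected counts scaled by library totals, with a counting interval of 12.3 to 33.6 for the last. These 3 measures gave nearly the same value. For OVGP1 the ratio was 11.0 in FPKM, 11.0 in TPM and 9.10 in expected counts, with a counting interval of 6.44 to 13.2. The count intervals of GAST and OVGP1 overlapped at their ends, from 12.3 to 13.2, and the difference between the ratios was not tested, since both genes were chosen by them. The deposited regularized log values, which shrink differences, went from 7.06 to 7.64 for GAST and from 7.13 to 7.62 for OVGP1. On that log2 scale the differences were 0.58 and 0.49, or factors of 1.49 and 1.40. The fourth measure thus had the same direction and a much smaller size. Adding 1 FPKM in both libraries also lowered the FPKM ratios, to 8.69 for GAST and 3.12 for OVGP1.

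Ranks among the genes past the minimum of 100 counts put the measures on a common footing. Out of these 14247 genes, GAST ranked 2 by FPKM ratio, 2 by TPM ratio, 2 by count ratio and 8 by regularized log difference. OVGP1 ranked 5, 5, 7 and 22. With no minimum on counts, an alternative chosen after seeing the data, GAST ranked 4 and OVGP1 40 by FPKM ratio. All 4 measures come from the same reads as the choice of the genes, and both genes reached 100 counts through the FIN56 library, so these ranks describe the choice and support nothing.

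The FPKM ratio of OVGP1 was 1.20 times its count ratio, whereas for GAST that quotient was 1.00. FPKM ratios and count ratios lay within a factor of 1.1 of each other in 11834 of the 14247 genes (83.1%), and OVGP1 was not among them. The effective length that links the counts of a gene to its FPKM was computed for each library from the deposited values. It was 366 bases (364 to 369, from rounding of FPKM to 2 decimals) for GAST in the DMSO library and 367 bases (366 to 367) in the FIN56 library. For OVGP1 it was 1900 bases (1865 to 1936) in the DMSO library and 1577 bases (1574 to 1579) in the FIN56 library. The implied length of OVGP1 was thus shorter in the FIN56 library by more than the rounding allows. RSEM averages this length over the transcripts of a gene by their estimated abundance, and transcript levels were not analysed here.

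**Figure D2:**
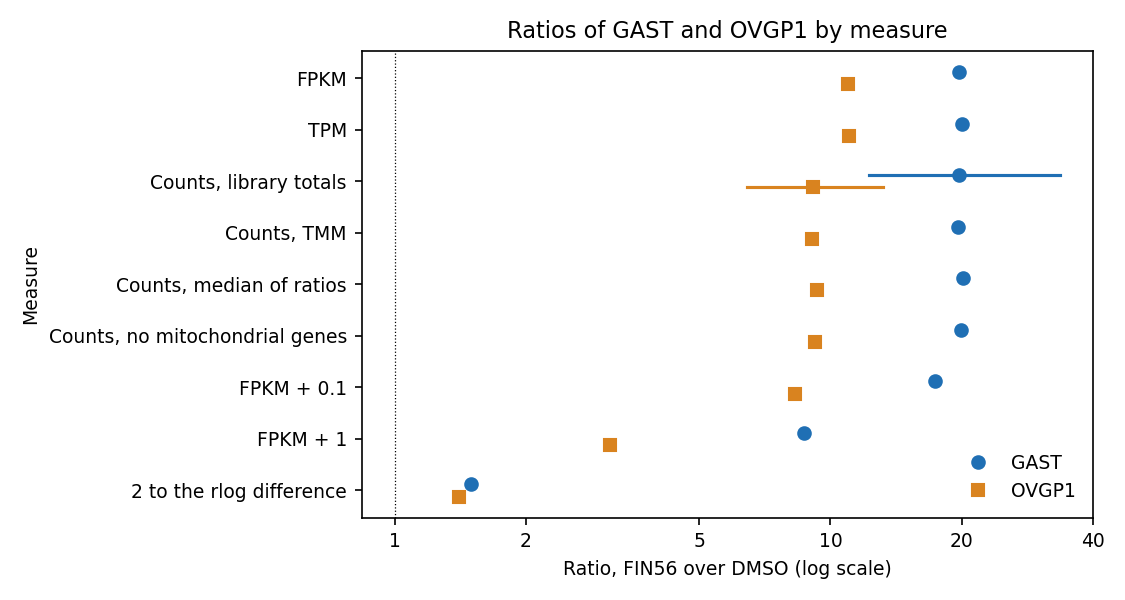
FIN56 over DMSO ratio (log axis) of GAST and OVGP1 by measure and scaling. Horizontal lines at the counts scaled by library totals are exact 95% counting intervals, 12.3 to 33.6 for GAST and 6.44 to 13.2 for OVGP1; the regularized log values gave 1.49 and 1.40.

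The study took genes as upregulated at an FPKM ratio of 1.5, and the inverse was added here for lower genes. The list of upregulated genes in the study was shorter than the number given next, and it did not state a further filter. With no further filter, at or past that ratio lay 3583 of the 24454 genes with FPKM above 0 in both libraries (14.7%), and 4240 (17.3%) lay at or under its inverse. Among the 14247 genes with at least 100 counts together the shares were 5.37% and 8.85%. Both GAST and OVGP1 were past it in the upward direction, which follows from how they were selected, and nothing is read from that. Only 6 of the 14247 genes had an FPKM ratio of 10 or more.

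Nearest to GAST in FPKM ratio were the readthrough gene TRIM6-TRIM34 above it (21.5) and FP236241.1 (14.2) and ADAM32 (11.1) below it. TRIM6-TRIM34 rested on 5.18 and 104 expected counts, and no gene ranked higher. FP236241.1 had 63.8 and 196 expected counts, a count ratio of 2.95, so that its place in the FPKM ranking was not matched in counts. Nearest to OVGP1 were FP236241.1 and ADAM32 above it and AC074212.1 (10.2) and AL683813.1 (9.57) below it. ADAM32, a member of the ADAM family of membrane proteins, had 40 and 292 expected counts and a count ratio of 7.01 (5.03 to 10.02). The rest of the 10 highest FPKM ratios were AC087721.2 (9.28), ZACN (8.71) and the readthrough gene NME1-NME2 (8.27). ZACN, which encodes a zinc-activated ion channel, had the highest count ratio of the 14247 genes, 20.3 (11.4 to 37.7), an interval that overlapped those of GAST and TRIM6-TRIM34 (8.29 to 62.8). Of these 10 genes, 3 had whole expected counts in both libraries: GAST, ADAM32 and OVGP1. The FPKM and count ratios were within a factor of 1.1 in 4 of the 10.

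**Figure D3:**
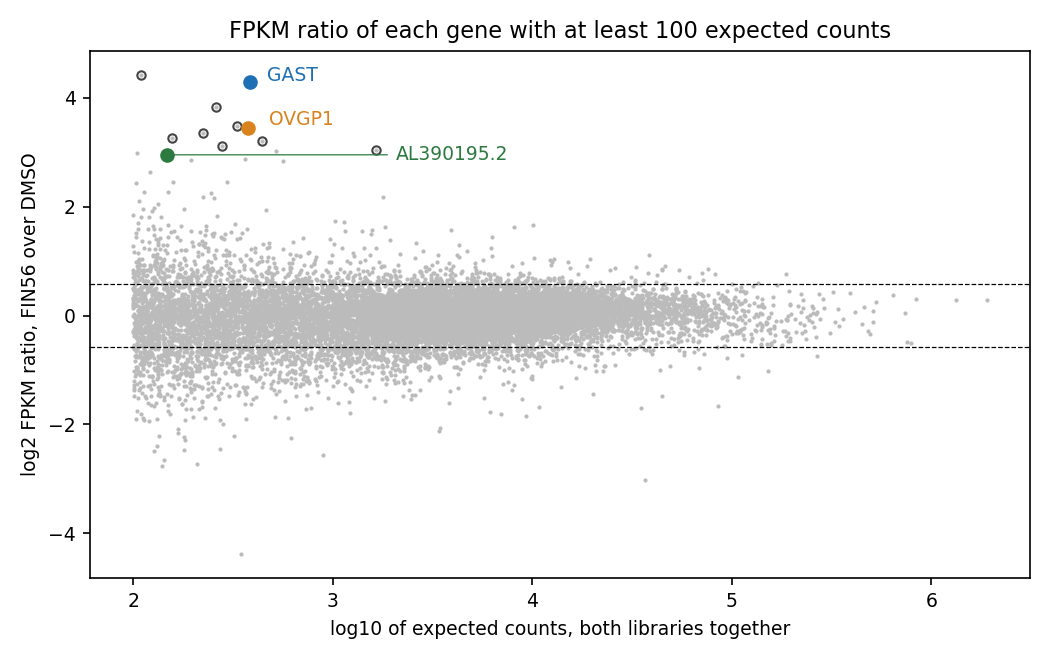
log2 FPKM ratio, FIN56 over DMSO, against log10 of the expected counts of both libraries together, for the 14247 genes with at least 100 counts. Open circles mark the 10 highest ratios and dashed lines a ratio of 1.5 in either direction; GAST (19.7) and OVGP1 (11.0) lie among the highest, and AL390195.2 (7.75) ranks 13.

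The genes next to each locus were taken by position, 5 on each side. Upstream of OVGP1, 3311 bases from its start and on the same strand, lies the long non-coding RNA gene AL390195.2. Its expected counts were 16 with DMSO and 131 with FIN56, a count ratio of 7.87 (4.67 to 14.2) and an FPKM ratio of 7.75. AL390195.2 ranked 13 by FPKM ratio and 12 by count ratio among the 14247 genes, which it entered through its FIN56 counts. Among the 17372 genes with 10 or more expected counts in each library, a filter chosen for it after its values were seen, it ranked 15 and 11. The next gene upstream, the processed pseudogene UBE2FP3 on the opposite strand, had 4 and 26 expected counts, a count ratio of 6.24 (2.17 to 24.6). Counts of a processed pseudogene are uncertain, because its reads can be shared with the parent gene. Those of UBE2FP3 were whole numbers as deposited, and sharing of its reads was not examined. Further upstream, the non-coding gene AL390195.1 had 378 and 348 expected counts (count ratio 0.884, 0.762 to 1.03). WDR77, which encodes a subunit of the PRMT5 methyltransferase complex and overlaps AL390195.1, had 5577 and 5590 expected counts (0.963, 0.928 to 0.999). AL390195.1 and WDR77 thus had count ratios below 1. With the uncertain UBE2FP3 left aside, AL390195.2 was the only upstream neighbour with a counting interval above 1. Reads between the genes were not examined, so where the higher counts ended was not tested. A Y_RNA gene within WDR77 had 0 and 2 counts. Downstream of OVGP1, the pseudogenes PGBP, HIGD1AP12, CHIAP3 and AL356387.2 were at 0 in both libraries, and PIFO, a gene of ciliary disassembly, had 62 counts in each. Whether the counting used strand was not given in the sources used here, so reads from opposite strands in this region cannot be told apart.

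Around GAST no neighbour with at least 100 counts together had a comparable ratio. HAP1, which encodes huntingtin-associated protein 1, starts on the opposite strand downstream and ends 1773 bases from GAST. It had 147 and 169 expected counts, a count ratio of 1.104 (0.880 to 1.39). EIF1, a translation initiation factor gene 19663 bases upstream, had 34553 and 36767 expected counts (1.02, 1.01 to 1.04). The other neighbours with at least 100 counts together were the keratin genes KRT16 and KRT17, the plakoglobin gene JUP and P3H4. The FPKM ratios of these 6 neighbours ran from 0.682 for KRT16 to 1.35 for HAP1. The keratin pseudogene KRT42P had 2 and 5 counts, AC130686.1 had 8 and 1, RN7SL399P had 0 and 6, and RNA5SP442 was at 0 in both libraries. With so few counts these 4 genes say little about the neighbourhood, although the counting interval of RN7SL399P lay above 1 (from 1.13) and that of AC130686.1 below 1 (up to 0.896).

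**Figure D4:**
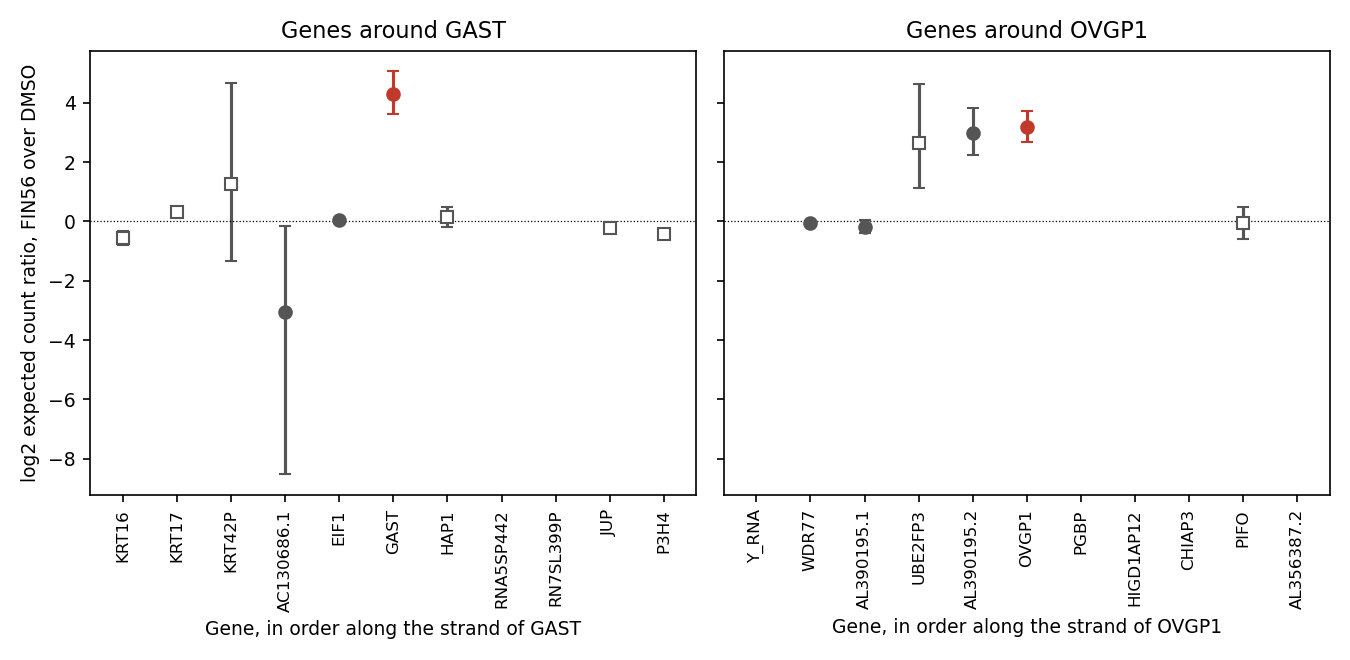
log2 expected count ratio, FIN56 over DMSO, of GAST (left), OVGP1 (right) and the 5 genes on each side, in order along the strand of the named gene, upstream at the left. Filled circles lie on that strand and open squares on the other, bars are exact 95% counting intervals, and genes at 0 in either library have no point; AL390195.2 (ratio 7.87) and UBE2FP3 (6.24) stand beside OVGP1 (9.10).

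A RefSeq promoter was matched for 1 of the 2 genes, GAST, and is shown to give the sequence before the start of a gene with so large a ratio. The 250 bases before its start, chr17:41712081-41712330 on the forward strand of GRCh38.p14, read 5′ to 3′ as follows, with matches to the TATA box, GC box and CACCC element in capitals:
GAST: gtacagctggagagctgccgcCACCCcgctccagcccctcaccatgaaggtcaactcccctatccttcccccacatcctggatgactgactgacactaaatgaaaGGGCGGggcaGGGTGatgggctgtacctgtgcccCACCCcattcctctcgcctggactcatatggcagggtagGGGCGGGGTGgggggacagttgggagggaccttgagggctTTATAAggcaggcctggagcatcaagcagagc
Letters were searched on both strands and positions count back from the base before the start, which is -1. TATAA was found on the forward strand from -31 to -27 and, overlapping it, on the reverse strand from -32 to -28. It occurred in 18.9% of 35116 promoter windows of the same length. GGGCGG, the GC box bound by Sp1 family factors, was found 2 times, from -145 to -140 and from -72 to -67, and occurred in 42.6% of windows. CACCC was found 4 times and occurred in 54.7% of windows; its match nearest the start, from -67 to -63, shares a base with a GC box. CCAAT (in 32.0% of windows), the AP-1 letters TGANTCA (6.57%) and the antioxidant response element core TGACNNNGC (10.9%) were not found. These are descriptions of the letters in this window, not of bound sites.

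The gastrin pathway was described through 15 further genes. Of these, 4 were at 0 in both libraries and 11 had FPKM above 0 in both. An FPKM ratio of 1.5 or more was seen in 2 of the 11, SCG5 and QPCT. A ratio at or under its inverse was seen in 1, CPZ, beside 14.7% and 17.3% of all genes with FPKM above 0 in both. Of the 8 with at least 100 counts together, QPCT was past the upper threshold and CPZ past the lower. The shares over all genes with that many counts were 5.37% and 8.85%. The median log2 FPKM ratio of the 11 was 0.12, beside 0.00 over all 24454 genes.

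Among the ligands, CCK, which encodes cholecystokinin, the closest relative of gastrin, had 63 and 90 expected counts. Its level went from 2.08 TPM with DMSO to 2.89 TPM with FIN56, a count ratio of 1.37 whose interval, 0.984 to 1.92, included 1. In the DMSO library the TPM intervals of CCK (1.598 to 2.66) and GAST (0.622 to 1.66) overlapped, and in the FIN56 library CCK (2.32 to 3.55) was below GAST. The receptors CCKBR and CCKAR had 0 counts in both libraries. A count of 0 allows up to 3 counts, or 0.0427 CPM (DMSO) and 0.0411 CPM (FIN56), and receptor transcripts were not detectable at this depth.

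Of the enzymes that process the precursor, the convertase PCSK1 had 38 and 37 expected counts (count ratio 0.935, 0.578 to 1.51). The second neuroendocrine convertase PCSK2 and the convertase inhibitor PCSK1N were at 0 in both libraries. SCG5, the chaperone of PCSK2, had 13 and 47 counts, a count ratio of 3.47 (1.85 to 6.997). The endocrine convertases were therefore scarce in both libraries, while FURIN, the convertase of most cell types, had 19.7 and 18.9 TPM. The carboxypeptidase CPE, which trims hormone precursors in granules, had 9 and 11 counts, and its broadly expressed relative CPD had 35.4 and 36.8 TPM. CPZ, a carboxypeptidase of the extracellular matrix, was lower in the FIN56 library, with 2.48 and 0.97 TPM and an FPKM ratio of 0.386.

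PAM, the enzyme that amidates the end of the peptide, was the most abundant of the 15 genes in both libraries, with 78.1 and 78.3 TPM. QPCT, the glutaminyl cyclase that closes the first residue of some gastrin forms, had 1835 and 3151 expected counts. Its level was 25.9 TPM in the DMSO library and 42.5 TPM in the FIN56 library, an FPKM ratio of 1.61 and a count ratio of 1.65 (1.56 to 1.75). The tyrosine sulfotransferases had 13.6 and 12.3 TPM (TPST1) and 13.3 and 16.0 TPM (TPST2). Genes for amidation, cyclization and sulfation were thus present in both libraries, and genes for the receptors and for most granule processing were at or near 0.

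**Figure D5:**
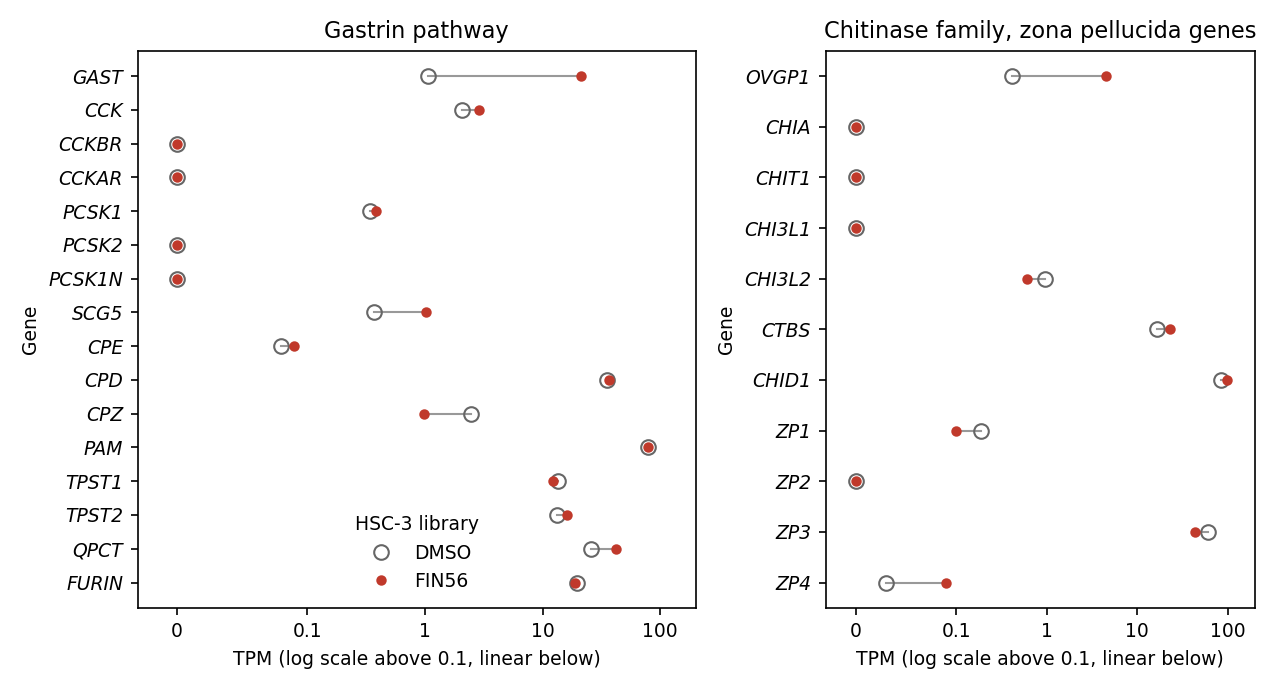
TPM of the gastrin pathway genes (left) and of the chitinase family and zona pellucida genes (right) in the DMSO library (open circles) and the FIN56 library (filled points), on an axis that is logarithmic above 0.1 and linear below. GAST went from 1.05 to 21.07 TPM and OVGP1 from 0.41 to 4.52 TPM; CCKBR, CCKAR, PCSK2, PCSK1N, CHIA, CHIT1, CHI3L1 and ZP2 were at 0 in both.

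Of 18 genes for factors known to act on the gastrin gene, 17 had FPKM above 0 in both libraries. None had an FPKM ratio of 1.5 or more and 4 lay at or under its inverse, beside 14.7% and 17.3% of all genes. Of the 17, 16 had at least 100 counts together, including these 4, and the shares over all such genes were 5.37% and 8.85%. These were the immediate early factor EGR1 (16.4 and 7.58 TPM, FPKM ratio 0.454), the AP-1 subunit JUND (31.0 and 18.5 TPM, 0.584) and the Hedgehog effectors GLI1 (4.44 and 2.45 TPM, 0.542) and GLI2 (1.13 and 0.73 TPM, 0.627). The count ratio of GLI1 was lower than its FPKM ratio, 0.353 (0.271 to 0.457), on 223 and 82 counts. The count ratio of GLI2 was 0.726 (0.604 to 0.871), inside the thresholds, so 3 of the 4 were past the lower one in counts. The Krüppel-like factor KLF4 had the highest FPKM ratio of the list, 1.41, with 710 and 981 expected counts. The Sp1 family genes SP1 and SP3 and the menin gene MEN1 had FPKM ratios of 0.923, 1.05 and 1.09. The median log2 FPKM ratio of the 17 was 0.04, and its sign turned in counts (-0.05 by library totals). NKX6-3, a factor of the gastric antrum, was at 0 in both libraries.

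GAST was also placed among 42 other peptide hormone genes. In both libraries 23 of them were at 0, and 16 had FPKM above 0 in both, of which 4 were at a ratio of 1.5 or more and 5 at or under its inverse, beside 14.7% and 17.3% of all genes. Of these called genes, all but STC2 and UCN had fewer than 10 expected counts in each library. The median log2 FPKM ratio of the 16 was -0.09. By TPM, GAST ranked 9 of the 43 genes with DMSO and 4 with FIN56. In the FIN56 library it followed the adrenomedullin gene ADM (90.5 TPM), the parathyroid hormone-like gene PTHLH (66.9 TPM) and the stanniocalcin gene STC2 (47.9 TPM). Next below it was the endothelin gene EDN1 at 18.5 TPM, whose counting interval of 17.6 to 19.4 overlapped that of GAST, 19.0 to 23.3. Of the 8 other hormone genes with at least 100 counts together, STC2 was at an FPKM ratio of 1.61 and the urocortin gene UCN at 0.660, and the other 6 lay between the thresholds, beside 5.37% of all genes with that many counts past the upper threshold and 8.85% past the lower. The count ratio of STC2 was 1.37 (1.32 to 1.42), under 1.5. A gain like that of GAST was not seen in any of these 8, but GAST was chosen for its ratio, so nothing is read from the contrast.

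Markers of the cells that normally make gastrin were low in both libraries. In bulk RNA, fewer cells of a type and less RNA per cell cannot be told apart. Of 28 enteroendocrine markers, 12 were at 0 in both libraries, including the fate factors NEUROG3, NEUROD1 and INSM1 and the hormones SST, GCG and GIP. Their summed level was 1.56 TPM in the DMSO library and 1.02 TPM in the FIN56 library, and the most abundant were GHRL (0.28 TPM) and SYP (0.24 TPM), respectively. The chromogranin gene CHGA had 6 and 2 expected counts. Of the 14 markers with FPKM above 0 in both, 2 were at a ratio of 1.5 or more and 6 at or under its inverse, beside 14.7% and 17.3% of all genes, with a median log2 FPKM ratio of -0.17. That median rested on few counts and varied with the measure, from -0.49 in TPM and -0.37 in counts by library totals to 0.00 over markers with 10 or more counts in each library. The sum of all 28 was below the level of GAST alone in the FIN56 library. In the DMSO library the sum was above the 1.05 TPM of GAST, but within its counting interval of 0.622 to 1.66 TPM. The serotonin enzyme gene TPH1 had 42 and 14.8 expected counts, the most counts of any of these markers in the DMSO library.

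Of 13 gastric epithelium markers, 8 were at 0 in both libraries: the trefoil genes TFF1 and TFF2, the pepsinogen genes PGC and PGA3, the lipase gene LIPF, the proton pump genes ATP4A and ATP4B, and the intrinsic factor gene CBLIF. Their summed level was 0.27 and 0.25 TPM, with GKN1 the most abundant in both (0.13 and 0.10 TPM). Of the 4 with FPKM above 0 in both libraries, 1 was at a ratio of 1.5 or more and 1 at or under its inverse, on 19 expected counts or fewer each, beside 14.7% and 17.3% of all genes (median log2 FPKM ratio -0.16). The mucin gene MUC6, the one at 1.5 or more (FPKM ratio 1.67), had 19 and 16 counts, a count ratio of 0.809 (0.389 to 1.66) in the other direction. The defining markers of stomach were thus at or near 0 in the library where GAST was high.

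The relatives of OVGP1 were few. Of 6 other genes of the chitinase family, the chitinase genes CHIA and CHIT1 and the chitinase-like CHI3L1 were at 0 in both libraries. The summed level of the 6 was 103 TPM in the DMSO library and 121 TPM in the FIN56 library, most of it from CHID1 (85.45 and 97.45 TPM). The lysosomal chitobiase gene CTBS had 16.8 and 23.0 TPM, an FPKM ratio of 1.34. CHI3L2 had 25 counts in both libraries, and its FPKM ratio of 0.615, the only one of the 3 past a threshold (17.3% of all genes were past that one), had a count ratio of 0.961 (0.529 to 1.74). The median log2 FPKM ratio of these 3 was 0.16.

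Of 19 markers of oviduct secretory cells, SOX17, EMX2 and PGR were at 0 in both libraries and 12 had FPKM above 0 in both. The protease inhibitor gene SLPI was at a ratio of 1.5 or more (261 and 550 expected counts, FPKM ratio 2.02). ESR1, MUC16 and CRISP3 were at or under its inverse, beside 14.7% and 17.3% of all genes. Of the 8 with at least 100 counts together, SLPI was past the upper threshold and ESR1 past the lower. The shares over all genes with that many counts were 5.37% and 8.85%. ESR1, the estrogen receptor gene, had 133 and 82 expected counts, an FPKM ratio of 0.529. Of the lineage factors, PAX8 had 1.90 TPM in both libraries and HOXA9, which had the highest level, 3.95 and 4.04 TPM (234 and 278 expected counts). Summed levels were 437 and 566 TPM, and most came from CD9 (235 and 275 TPM) and EPCAM (166 and 245 TPM), which many epithelia express. The median log2 FPKM ratio of the 12 was -0.15.

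Of 8 markers of oviduct ciliated cells, the ciliogenesis factor FOXJ1 had 0 and 1 counts and 7 had FPKM above 0 in both libraries. TPPP3 (4 and 9 counts) and DNAH9 (3 and 4 counts) were at a ratio of 1.5 or more, and none at or under its inverse, beside 14.7% and 17.3% of all genes, with a median log2 FPKM ratio of 0.16. The summed level, 874 and 754 TPM, was nearly all TUBB4B (870 and 749.6 TPM), a tubulin gene that dividing cells also express. Of the 4 zona pellucida genes, ZP2 was at 0 in both libraries and ZP3 had 61.18 and 44.01 TPM, most of the summed 61.4 and 44.2 TPM. ZP1 had 13 and 5 counts (past the lower threshold) and ZP4 had 2 and 8 (past the upper), beside 17.3% and 14.7% of all genes, and the median log2 FPKM ratio of the 3 with FPKM above 0 was -0.51. Among the lineage factors and steroid receptors of the oviduct lists, HOXA9, PAX8, ESR1 and ESR2 had counts above 40 in each library, and the others had 0 or 1.

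The squamous identity of the line was seen in both libraries. All 18 squamous carcinoma markers had FPKM above 0 in both, with summed levels of 14337 TPM in the DMSO library and 11063 TPM in the FIN56 library. S100A2 was the most abundant in both, with 5353 and 2701 TPM and an FPKM ratio of 0.494. It was the only one past a threshold, at or under the inverse, as were 17.3% of all genes. Among the genes with at least 100 counts together that share was 8.85%. The basal keratins KRT5 and KRT14 had 3109 and 2109 TPM in the DMSO library and 2517 and 2066 TPM in the FIN56 library. The lineage factor TP63 had 128 and 142 TPM, and SOX2 had 8 and 7 expected counts. The median log2 FPKM ratio of the 18 was 0.05. The markers give levels only, and the part of any other cell type in the GAST and OVGP1 levels was not tested.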

How the data were processed

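Poly(A) RNA of HSC-3 was made into libraries with the TruSeq Stranded mRNA kit. The submitters' processing notes name FastQC 0.11.7, STAR 2.6.1a, RSEM 1.3.1 and DESeq2 1.26.0 on hg38. The order of these steps is described for tumor samples of the same study and was taken to hold here. The annotation release was not: the table holds gene identifiers and symbols newer than the release named for the tumor samples, and its own release is not given in the sources used here. The authors deposited expected counts from RSEM, which need not be whole. The deposited FPKM and TPM, rounded to 2 decimals, are scaled by effective length. The deposited log2 values are regularized log values from DESeq2.

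The FIN56 library was compared with the DMSO library as the ratio of FPKM and of expected counts divided by library totals. Exact Clopper-Pearson 95% intervals used counts rounded to whole numbers and were checked on simulated counts. They cover counting error only, and PCR copies are not independent molecules. With 1 library per condition no test was made. Genes needed FPKM above 0 in both libraries, and rankings at least 100 expected counts together. Alternatives used edgeR 4.0.16 and DESeq2 1.42.0 scaling under R 4.3.3, other totals, and pseudocounts of 0.1 and 1 FPKM. Named genes were GAST, OVGP1, members of 10 lists, the 10 highest FPKM ratios, the nearest ratios to each gene and 5 neighbours on each side. Neighbours and transcripts came from GENCODE 44, in which 60419 of the 60616 identifiers (99.7%) were found. Medians of lists leave out GAST and OVGP1. The gastric marker GIF was matched under its current symbol, CBLIF. The motifs were picked after the values were seen. GAST, OVGP1 and the lists were chosen with earlier results of these data known. Python 3.11.15, pandas 2.3.3, numpy 2.4.6, scipy 1.17.1 and matplotlib 3.10.9 were used.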

Additional observations from a re-analysis of the deposited data

How the results depend on the processing

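Each FPKM ratio was recomputed in 8 other ways, and all 16 values stayed above 1. Both genes were chosen by large count ratios in these same reads, so the recomputed values describe the choice and support nothing. TPM, the 4 count scalings and a pseudocount of 0.1 FPKM stayed inside the counting interval of the FPKM ratio, 12.3 to 33.6 for GAST and 7.76 to 15.9 for OVGP1. The values outside it were those of a pseudocount of 1 FPKM and of the regularized log. The pseudocount, which by construction lowers ratios of genes near 1 FPKM, gave 8.69 for GAST and 3.12 for OVGP1. The regularized log, which shrinks differences, gave 1.49 and 1.40. The count ratios ran from 19.7 to 20.2 for GAST and from 9.09 to 9.33 for OVGP1 over the scalings. Over genes with 10 or more expected counts in each library, GAST ranked 1 and OVGP1 5 by FPKM ratio. The number of genes at an FPKM ratio of 1.5 or more was 3583, against 1323 with at least 10 counts in both and 489 with at least 1 FPKM in both, a filter that leaves out GAST and OVGP1. At or under the inverse there were 4240, 1936 and 855. The median of the gastric markers ran from -0.30 to 0.74 and that of the enteroendocrine markers from -0.49 to 0.00. For the zona pellucida genes the median ran from -0.51 to -0.02 and for the chitinase family from 0.16 to 0.36. Of 50 recomputed list medians, 34 moved by less than 0.1. The opposite sign was taken by 4, those of the gastrin gene regulators in counts by library totals and by TMM and in the regularized log, and that of the gastric markers with at least 10 counts (0.74 on a single gene, MUC6, whose counts were not higher). No paired analysis was possible because a single DMSO and a single FIN56 library were sequenced, and neither could be left out. The 18 and 36 counts of the DMSO library set the width of the intervals.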
